A study of Petromyzon marinus with 4 samples.

Results

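MAEL, ASZ1, HENMT1 and TEX15 are genes whose products work with PIWI proteins. They were taken by name from the feature lists of a single-cell RNA study of sea lamprey gonads, where all 4 were found among 21967 features. The study holds 4 libraries in 3 groups: 1 from a female transformer, 1 from a male transformer and 2 labelled as biological replicates from larvae. A transformer is a lamprey that has metamorphosed and whose sex is set, whereas the larval gonads were undifferentiated and of undetermined sex. All animals were wild-caught, wild type and of unknown age. Per the labels, a neuron isolation kit was used to dissociate the gonads, a flow sorter to enrich living cells and a PIPseq T20 3′ kit to capture polyadenylated RNA. The number of animals behind a library is not given in the sources used here, so the larval replicates measure only the spread between those libraries.

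PIWI-interacting RNAs (piRNAs) are small RNAs of animal germ cells that guide PIWI proteins to transcripts of transposable elements. Their precursors are cut and loaded in granules beside mitochondria, and the finished piRNA is protected by a methyl group at its 3′ end. MAEL (maelstrom) is an HMG-box protein of these granules that flies and mice need for transposon silencing. ASZ1, also called GASZ, is an ankyrin-repeat protein on the outer mitochondrial membrane that holds the granule together in mice. HENMT1 is the methyltransferase that adds the 3′ methyl group in mice and zebrafish. TEX15 is a nuclear protein of mouse male germ cells, where it is needed for piRNA-directed DNA methylation and for repair of meiotic DNA breaks.

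The deposited tables held 239024376 to 406358335 counts per library. Cells were barcodes with at least 1875 counts and 250 genes, which left 28976 female, 38210 male, 18647 larval 1 and 19515 larval 2 cells after doublet and mitochondrial filters. Called cells of any pair of libraries shared 5 to 12 barcodes, at most 0.0615% of a library's cells. The cells formed 41 clusters. The 4 genes and the rest of a 42-gene piRNA pathway list were used neither for clustering nor for naming. A cluster was called germ cell-like, here germ cells for short, where at least 3 of 23 other germ cell markers were raised. These had to outnumber the raised markers of any other cell type. With the mixed clusters below set apart, 6 clusters were named so. They held 680 female, 26022 male, 1182 larval 1 and 1231 larval 2 cells. A further 5 clusters, almost wholly of 2903 male cells, carried germ cell markers together with leading genes of other clusters and were kept apart as mixed. Cells of the remaining clusters are called other cells. Endothelial-like and renal tubule-like cells were named among them. A somatic type was named only where all its markers in the feature list were raised. No cluster met this for the 8 stromal or the 5 supporting markers found, and the other somatic types had too few markers to be named. Levels are counts per 1000000 (CPM) of a library's counts in the named set, with exact 95% Poisson intervals that cover counting error only. Counts at 3′ ends depend on each gene's annotated end, so levels are compared between libraries and cells and not between genes.

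In germ cells the 4 genes gave different orders of the libraries. MAEL and TEX15 were about as high in male as in larval germ cells and far lower in female ones. ASZ1 was highest in male germ cells, low in larval ones and by CPM lower still in female ones. That female difference from the larvae shrank to log2 −0.26 and −0.09 without the genes most abundant in female germ cells. HENMT1 had the opposite order, with the female library highest and the male library lowest. Each gene was higher in germ cells than in other cells of the same library, although TEX15 in the female library differed by no more than counting error.

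MAEL stood at 5.73 CPM in female germ cells (4.59 to 7.07, 87 counts) and at 60.9 CPM in male ones (59.8 to 61.9, 13170 counts). Larval germ cells had 56.2 CPM in library 1 (54.1 to 58.3) and 54.4 CPM in library 2 (52.6 to 56.4). The female library stood apart from the other 3. MAEL was 10.6-fold lower in female than in male germ cells, a log2 difference of −3.41 (−3.73 to −3.10). Against the larval libraries the female difference was −3.29 and −3.25, whereas the larval libraries differed from each other by 0.05 (−0.03 to 0.12). The male level was 0.12 and 0.16 above the larval ones on the log2 scale. That small male difference had no stable sign: it was 0.51 and 0.55 with TMM scaling (trimmed mean of M values) and −0.16 and −0.10 without the genes most abundant in female germ cells.

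ASZ1 stood at 5.87 CPM in female germ cells (4.71 to 7.22, 89 counts) and at 45.1 CPM in male ones (44.3 to 46.1, 9771 counts). The larval libraries had 11.0 CPM (10.1 to 12.0) and 9.96 CPM (9.17 to 10.8). ASZ1 was thus 7.70-fold higher in male than in female germ cells, a log2 difference of −2.94 for female minus male (−3.26 to −2.64). They also exceeded the larval libraries, by log2 2.03 (1.91 to 2.16) and 2.18 (2.06 to 2.30). The male excess over the larvae stayed between 1.76 and 2.57 in both libraries under the other scalings. The female level was 0.91 and 0.76 below the larval ones on the log2 scale, and 0.26 and 0.09 below without the genes most abundant in female germ cells.

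HENMT1 stood at 72.1 CPM in female germ cells (67.9 to 76.5, 1094 counts), at 58.0 CPM in larval library 1 (55.9 to 60.1), at 57.8 CPM in larval library 2 (55.9 to 59.8) and at 30.6 CPM in male germ cells (29.8 to 31.3). The female level was 2.36-fold the male one, a log2 difference of 1.24 (1.15 to 1.33). The male level lay below the larval ones by log2 −0.92 in both, and the female level above them by 0.31 and 0.32. With TMM scaling neither direction turned: the male difference was −0.53 and the female one 0.73 against both larval libraries. Without the genes most abundant in female germ cells the male difference was −1.20 and −1.18 and the female one 0.97 and 0.99. Leaving those genes out raises female and lowers male levels against the larvae for every other gene. It could therefore not have turned either direction. The female excess over the larvae was not seen in the shallower cells, and the deeper cells were not alike in depth, as given below. HENMT1 was the only gene of the 4 that was higher in female than in male germ cells.

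TEX15 gave only 10 counts in 680 female germ cells, 0.659 CPM (0.316 to 1.21). Male germ cells had 28.9 CPM (28.2 to 29.6, 6256 counts), larval library 1 had 32.1 CPM (30.6 to 33.7) and larval library 2 had 30.8 CPM (29.4 to 32.3). The female level was 43.9-fold below the male one, a log2 difference of −5.45 (−6.52 to −4.57), and its interval overlapped that of female low-count barcodes, which are too shallow to be called cells, 1.04 CPM (0.552 to 1.77). TEX15 RNA in female germ cells was therefore not detectable above the level of low-count barcodes at this depth. Such barcodes are not a general floor: in the male library they had 47.3 CPM of ASZ1, against 45.1 CPM in germ cells. The male difference from the larvae, log2 −0.15 and −0.09, turned to 0.24 and 0.29 with TMM scaling.

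Of the 4 genes, 3 were at least 4-fold lower in female than in male germ cells, as were 10.1% of the 18296 features compared. HENMT1 was at least 2-fold higher, as were 19.3% of them, and none of the 4 was at least 4-fold higher, as were 7.89%. With 1 library of each sex there was no test of this difference. What belongs to sex cannot be told apart from what belongs to these 2 libraries or to the kinds of germ cell in them. Most female and male germ cells lay in clusters with few leading genes in common, as given below. The totals behind CPM also differed in make-up. A set of 161 features abundant in female germ cells and at least 32-fold lower in male ones held 47.5% of female, 0.184% of male, 17.4% of larval 1 and 16.5% of larval 2 germ cell counts. Without them the female minus male differences shifted by log2 0.93, to −2.48 for MAEL, −2.02 for ASZ1, 2.17 for HENMT1 and −4.53 for TEX15.

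**Figure D1:**
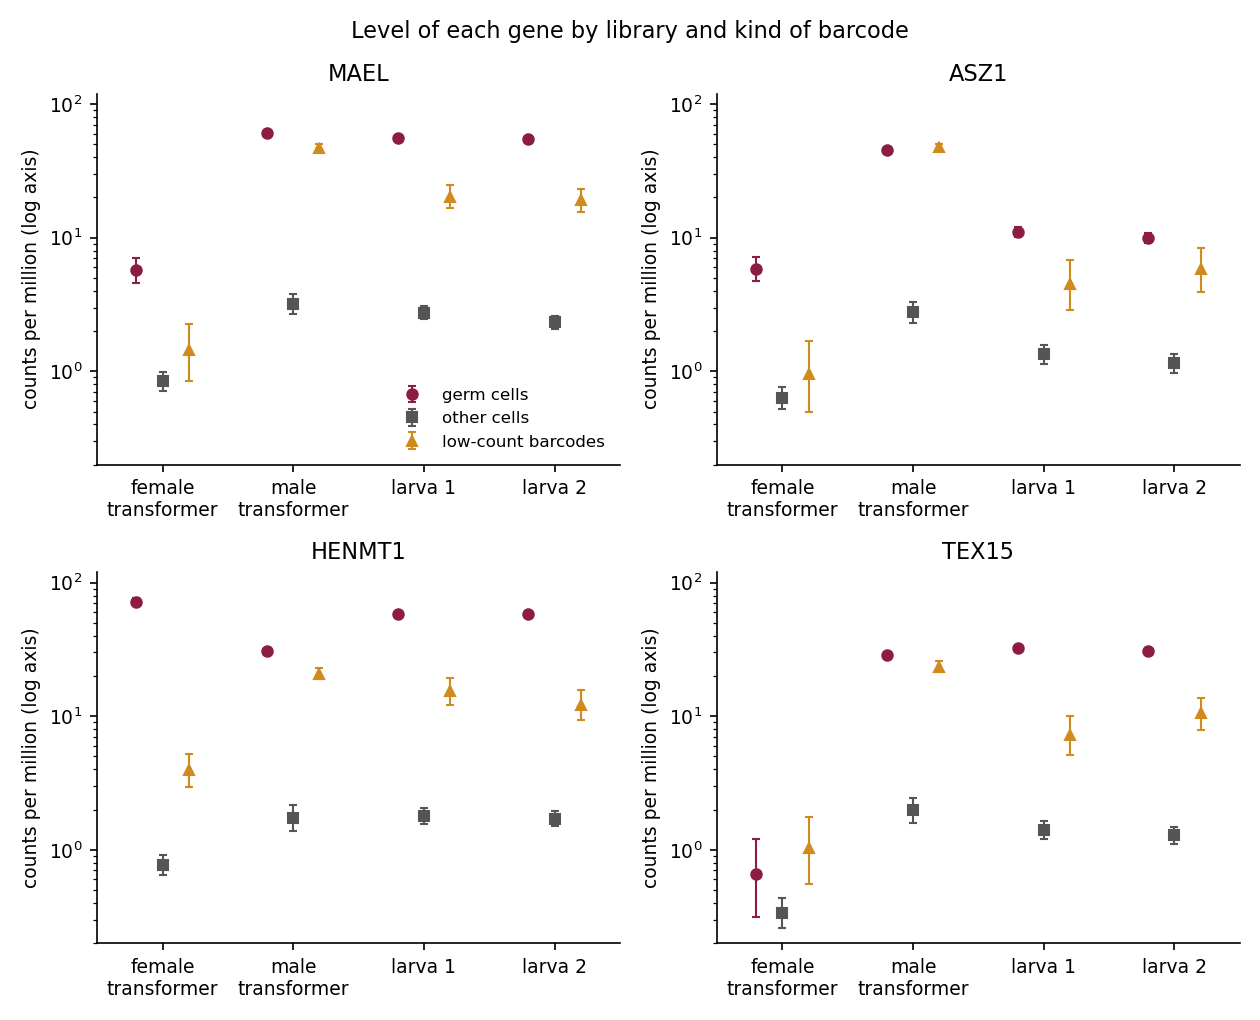
Level of MAEL, ASZ1, HENMT1 and TEX15 in CPM (log axis) in each library, for germ cells (circles), other cells (squares) and low-count barcodes ranked 40000 to 80000 (triangles), with exact 95% Poisson intervals. Female germ cells are lowest for MAEL, ASZ1 and TEX15 and highest for HENMT1, and other cells lie below the low-count barcodes of the same library.

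Other cells carried little of any of the 4. MAEL in other cells stood at 0.841 CPM in the female library and 3.21 CPM in the male one, against 2.75 and 2.33 CPM in the larvae. Germ cells exceeded these by 6.82-fold in the female library (interval 5.18 to 8.93), 18.9-fold in the male, and 20.4-fold and 23.4-fold in the larvae. ASZ1 was 9.22-fold, 16.2-fold, 8.22-fold and 8.64-fold higher in germ cells, in the same order of libraries. HENMT1 gave the widest gap, 93.1-fold in the female library (78.0 to 112), against 17.5-fold in the male and 32.4-fold and 33.8-fold in the larvae. TEX15 was 14.5-fold, 22.8-fold and 24.1-fold higher in male, larval 1 and larval 2 germ cells, but only 1.95-fold in female ones, with an interval from 0.892 to 3.84. The mean log2 difference over the larval libraries was 4.45 ± 0.14 for MAEL, 3.08 ± 0.05 for ASZ1, 5.05 ± 0.04 for HENMT1 and 4.55 ± 0.06 for TEX15 (SD, n = 2).

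All 4 genes were thus at least 4-fold higher in germ cells of the male and both larval libraries, and 3 of 4 in the female library. Such a gap was found for 10.4% of features in female cells, 13.0% in male cells, and 8.12% and 8.59% in cells of larval libraries 1 and 2. The germ cells are clusters of the same cells, so these gaps are descriptions without a test. Other cells also lay below the level of low-count barcodes, those ranked 40000 to 80000 by counts, in every library, at 5.88% to 66.5% of it. The low-count barcodes had 1.44 CPM of MAEL in the female library and 47.1 CPM in the male one, against 20.3 and 19.0 CPM in the larvae. In the male library 223 of these 40000 barcodes reached the cell minimum, and in the others none did. Barcodes ranked 80000 to 160000, a choice made after seeing the data, had 0.858, 55.6, 17.6 and 21.8 CPM of MAEL in the same order, and other cells lay below them too for each of the 4 genes in every library. Free RNA and shallow cells cannot be told apart in such barcodes, and the part of free RNA in the traces in other cells was not tested.

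The share of cells with a count was taken beside depth. MAEL was counted in 11.2% of female, 36.0% of male, 52.5% of larval 1 and 56.4% of larval 2 germ cells, whose median counts were 12540.5, 8028, 18714 and 22370. With every cell thinned to 1875 counts the shares were 0.951%, 10.4%, 9.64% and 9.18%. HENMT1, thinned likewise, was found in 9.78% of female, 5.16% of male, 9.15% of larval 1 and 9.999% of larval 2 germ cells. ASZ1 gave 0.922%, 7.78%, 3.61% and 2.83%, and TEX15 gave 0.196%, 5.05%, 5.68% and 5.60%. The thinned share of HENMT1 was thus higher in larval library 2 than in the female library, unlike its CPM, so no order of these libraries is read from it. In endothelial-like cells, which are not germ cells, the thinned share of MAEL was 0.0373% to 0.266%, and the median depth was 2730 to 3475 counts. Single germ cells held up to 56 counts of MAEL, 17 of ASZ1, 24 of HENMT1 and 31 of TEX15, all in larval libraries.

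Germ cells of the libraries lay in different clusters, so the genes were also followed cluster by cluster. Female germ cells were almost all in cluster 31 (675 cells), which also held 79 male cells. Cluster 31 had ZAR1L, CPEB1 and SOHLH2 raised: ZAR1L and CPEB1 act in the storage and translation of oocyte messages, and SOHLH2 is a germ cell transcription factor. None of them was particular to it. CPEB1 was raised in every germ cell-like cluster, ZAR1L also in clusters 0, 20 and 25, and SOHLH2 also in clusters 20 and 25. Among other cells, SOHLH2 was raised in renal tubule-like cluster 13 and CPEB1 in unnamed cluster 38. Larval germ cells were in cluster 20 (668 and 691 cells) and cluster 25 (509 and 529 cells). Of the 100 leading genes of cluster 20, 46 were shared with female cluster 31 and 30 with male cluster 0. Female cluster 31 and male cluster 0 shared only 1 of theirs. Cluster 25 shared 66 with male cluster 0 and 3 with cluster 31. It also had BOLL, a translation factor of germ cells, and the meiotic genes SYCP3, TEX11 and TERB2 raised. Male germ cells were in clusters 0 (16077 cells), 1 (9540 cells) and 34 (310 cells).

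**Figure D2:**
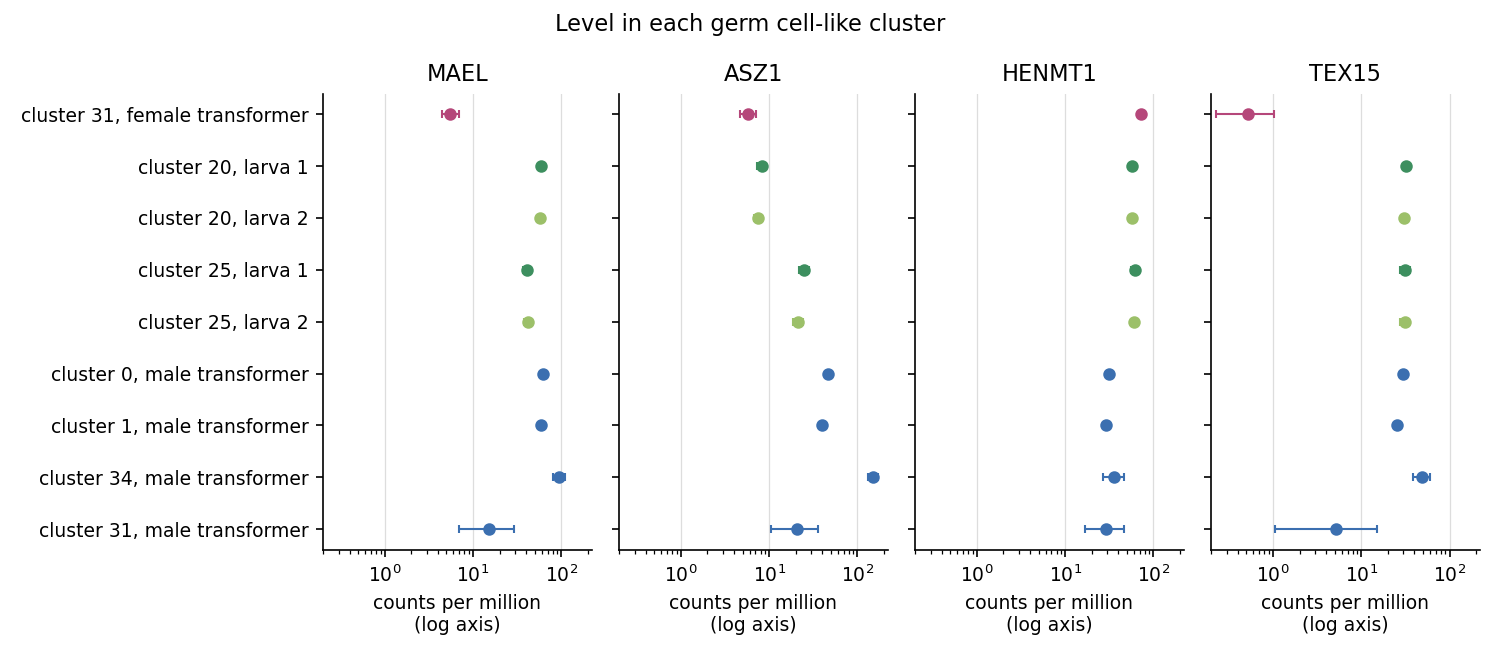
Level in CPM (log axis) of each gene in every germ cell-like cluster and library with at least 50 cells, with exact 95% Poisson intervals. ASZ1 and MAEL order the 2 larval clusters in opposite ways, and TEX15 is low only in cluster 31.

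The larval clusters differed in 2 of the 4 genes. ASZ1 was lower in cluster 20 than in cluster 25 in both larval libraries, with 8.24 against 24.8 CPM in library 1 and 7.48 against 21.2 CPM in library 2. The log2 differences were −1.59 (−1.84 to −1.34) and −1.50 (−1.75 to −1.25). These clusters also differed in cell depth, and ASZ1 varied with depth, as given below. In library 1 cells at a median of 7294 counts in cluster 20 had 18.0 CPM (11.9 to 26.0). Cells at 7212.5 counts in cluster 25 had 31.5 CPM (20.6 to 46.1), an overlapping interval. Library 2 had 13.5 CPM (9.26 to 19.1) at 11126 counts in cluster 20 and 43.2 CPM (31.1 to 58.4) at 7715 in cluster 25. MAEL was higher in cluster 20, with 59.4 against 40.6 CPM and 57.1 against 42.1 CPM, log2 differences of 0.55 (0.39 to 0.71) and 0.44 (0.30 to 0.59). HENMT1 differed by −0.10 and −0.06, and TEX15 by 0.05 and −0.01, all within counting error. Without the 161 abundant features, which held 20.8% and 20.1% of cluster 20 counts, the ASZ1 differences were −1.26 and −1.18 and those of MAEL 0.88 and 0.76, while HENMT1 turned to 0.23 and 0.25 and TEX15 stood at 0.38 and 0.31.

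Set beside the larval cluster with the most shared leading genes, female cluster 31 kept the low MAEL and TEX15. MAEL in cluster 31 was 10.7-fold and 10.3-fold below larval cluster 20. TEX15, with 8 counts in the 675 female cells, lay log2 5.93 and 5.87 below it. HENMT1 was 0.33 above cluster 20 in both comparisons, and 0.93 and 0.94 without the abundant features. ASZ1 was −0.50 and −0.36 against cluster 20 but 0.09 and 0.25 without the abundant features, so the female and the larval cluster could not be ordered for ASZ1. The 79 male cells of cluster 31, with a median of 3565 counts, had 15.3 CPM of MAEL (7.02 to 29.1, 9 counts) and 5.12 CPM of TEX15 (1.05 to 14.9, 3 counts). Male low-count barcodes carried 47.1 CPM of MAEL and 23.5 CPM of TEX15, and their part in these counts was not tested.

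Male cluster 0 and larval cluster 25 were closer to each other. TEX15 differed between them by log2 −0.06 and −0.04, with intervals that spanned 0. MAEL was 0.59 and 0.54 higher in the male cluster, and ASZ1 0.90 and 1.12 higher. HENMT1 was lower in the male cluster by −0.98 and −0.94. The abundant features held 0.10% of the counts of male cluster 0 and 0.46% and 0.44% of those of larval cluster 25, and without them MAEL stood at 0.59 and 0.54, ASZ1 at 0.89 and 1.12 and HENMT1 at −0.99 and −0.95. Over all their cells, the order of male over larval ASZ1 and of larval over male HENMT1 thus held between these clusters as between all germ cells. ASZ1 and MAEL of cluster 25 were higher in its shallowest cells than in its deepest, however. At medians of 7212.5 and 7715 counts MAEL had 50.8 CPM (36.6 to 68.7) and 59.7 CPM (45.3 to 77.1). Both intervals overlapped that of male cluster 0 at 6289.5 counts (67.7 to 74.7). At 15001 counts library 1 (37.8 to 58.5) overlapped the male interval at 15083 (56.8 to 60.6). Library 2 at 18235.5 counts (34.1 to 51.7) lay below it. ASZ1 is given below by cell depth.

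Among male clusters, cluster 34 had the highest ASZ1, 152 CPM (133 to 172), against 46.1 in cluster 0 and 39.9 in cluster 1. MAEL stood at 94.8 CPM in cluster 34 (80.5 to 111), against 61.2 and 59.4. TEX15 followed with 48.9 CPM (38.8 to 60.9), against 30.01 and 25.5. HENMT1 had 35.5 CPM (26.9 to 45.9), against 31.2 and 28.8. Cluster 34 had 11 germ cell markers raised, among them NANOS1, SPO11, TEX11 and MLH3, genes of germ cell maintenance and of meiotic recombination. Among other cells, NANOS1 was also raised in unnamed clusters 2, 8, 10, 14 and 28, and SPO11 in renal tubule-like cluster 13. Cluster 34 also had 1 endothelial and 1 skeletal muscle marker raised. Its cells had a median of 4207.5 counts, the least of the 3. Mixed cluster 19, with 1482 male cells led by CCNB2, PCLAF, SPC25 and NUF2 (genes of cell division), had 45.8 CPM of MAEL, 33.6 of ASZ1, 28.6 of HENMT1 and 21.95 of TEX15. Of these, MAEL, ASZ1 and TEX15 lay below cluster 0 by more than counting error, and HENMT1 did not.

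Within clusters the levels also varied with cell depth. Larval cluster 20 spanned the widest range: when its cells were split by depth into 4 equal groups, the shallowest had a median of 2458 counts in library 1 and the deepest 153843. ASZ1 stood at 21.7, 18.0, 11.0 and 6.44 CPM from the shallowest to the deepest group in library 1. In library 2 it stood at 11.3, 13.5, 9.31 and 6.22 CPM. The deepest group had the lowest MAEL too, 50.6 CPM in library 1 and 53.2 in library 2. HENMT1 and TEX15 showed no such order in cluster 20, and their deepest groups had 55.2 and 30.5 CPM in library 1. ASZ1 also fell with depth in larval cluster 25, to 22.9 and 17.6 CPM. Its shallowest groups, at medians of 7212.5 and 7715 counts, had 31.5 (20.6 to 46.1) and 43.2 CPM (31.1 to 58.4). These intervals overlapped that of male cluster 0 at 8325 counts (43.3 to 48.0). At 6289.5 counts male cluster 0 had 52.9 CPM (49.9 to 56.0), above the interval of library 1 but within that of library 2. At 15001 counts library 1 had 30.6 CPM (23.1 to 39.9), below the male 45.1 at 15083 (43.4 to 46.8). Library 2 at 18235.5 counts was also below it, with 22.5 CPM (16.7 to 29.6). In male cluster 0 TEX15 fell from 35.5 to 27.8 CPM and MAEL from 71.1 to 58.7. In female cluster 31 HENMT1 stood at 23.4, 47.7, 86.7 and 72.2 CPM over the groups. Larval cluster 20 had 45.8, 55.2, 63.1 and 55.2 CPM of it in library 1 and 45.3, 59.2, 68.1 and 52.9 in library 2. Group for group, the female level was thus below the larval one in the shallower groups, with overlapping intervals, and above it in the deeper ones. The deeper groups were not alike in depth. Their medians were 19564 and 49547.5 counts in the female cluster, 68027 and 153843 in larval library 1, and 79102 and 171208.5 in library 2. The female interval at 49547.5 counts (67.1 to 77.6) overlapped the larval ones at 68027 (58.6 to 68.0) and 79102 counts (63.7 to 72.8). MAEL in cluster 31 did not exceed 6.97 CPM in any group. The low female MAEL thus appeared in deep and in shallow cells.

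**Figure D3:**
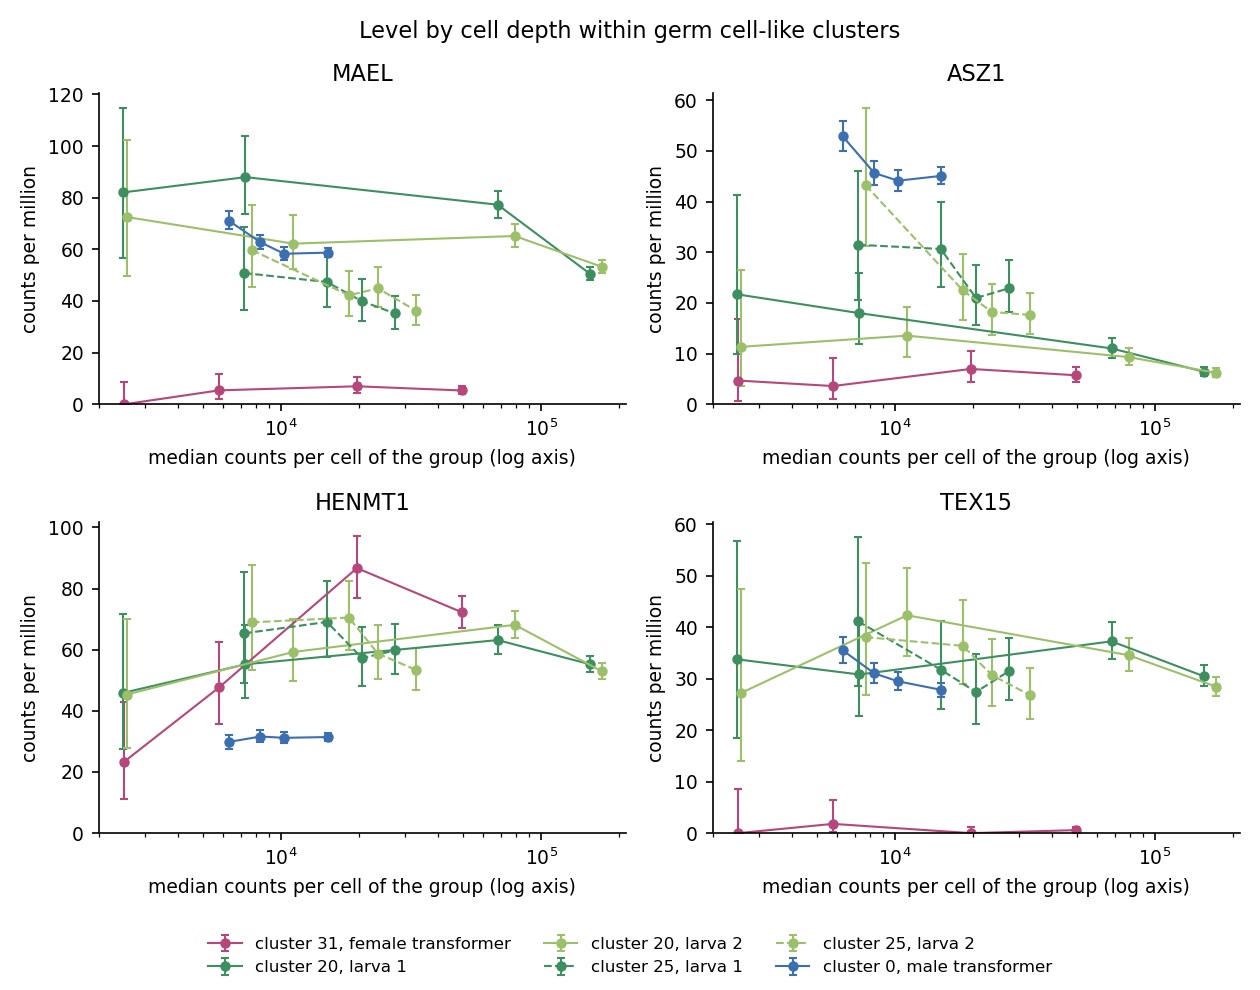
Level in CPM of each gene against the median counts per cell (log axis) in 4 equal groups of the cells of a cluster and library, split by depth, with exact 95% Poisson intervals. ASZ1 is lowest in the deepest group of larval cluster 20, and female cluster 31 stays near 0 for MAEL and TEX15 at every depth.

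Outside germ and mixed clusters, 53 sums of a cluster in a library held at least 50 cells. Their median level was 1.72 CPM for MAEL, 0.929 for ASZ1, 0.987 for HENMT1 and 0.841 for TEX15. The highest level of each gene was in 258 male cells of unnamed cluster 26: 18.9 CPM of MAEL (13.5 to 25.8), 11.8 of ASZ1 (7.66 to 17.5), 9.95 of HENMT1 (6.16 to 15.2) and 10.4 of TEX15 (6.53 to 15.8). These levels lay below those of male low-count barcodes for each of the 4 genes. Larval cells of unnamed cluster 16 came next for MAEL, with 9.47 and 9.70 CPM. None of the 53 sums had HENMT1 above the lowest germ cluster, 28.8 CPM in male cluster 1. For MAEL 4 sums lay above its lowest germ cluster, for ASZ1 1 and for TEX15 39. The share of all features without such sums was not taken. The larval cells with CUBN, LRP2 and PAX2 raised, called renal tubule-like, had 4.07 and 4.66 CPM of HENMT1, below the 15.4 and 12.2 CPM of larval low-count barcodes.

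**Figure D4:**
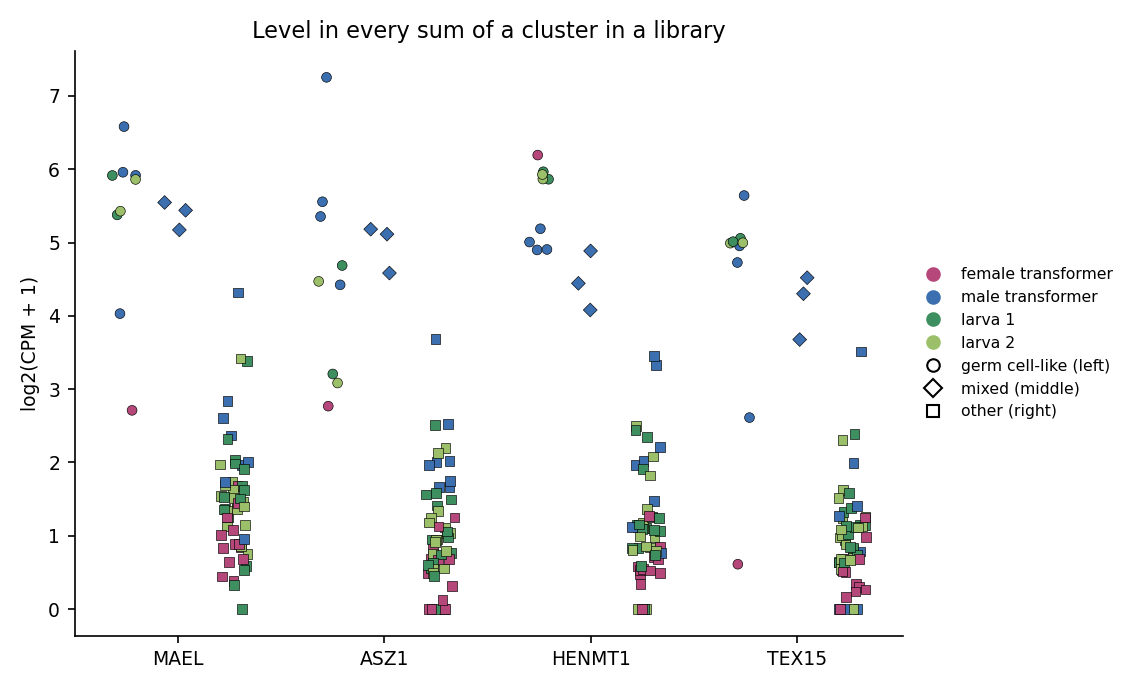
Level of each gene, as log2(CPM + 1), in every sum of a cluster in a library with at least 50 cells, coloured by library and split into germ cell-like, mixed and other clusters. Among these genes only HENMT1 has germ and other clusters that do not overlap, whereas TEX15 in female cluster 31 lies among the other clusters. The share of all features without such overlap was not taken.

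Because female germ cells were only 2.35% of the called female cells, the sum over all female cells mixed both sources. Germ cells gave 88.6% of the female HENMT1 counts, but 35.5% of MAEL, 43.6% of ASZ1 and 13.7% of TEX15. Female renal tubule-like cells, 17.3% of the cells and deep at a median of 12926 counts, gave 29.0% of MAEL, 36.8% of ASZ1 and 37.0% of TEX15, at levels of 1.12, 1.18 and 0.426 CPM. In the male library germ cells gave 88.5% to 89.6% of the counts of each gene, and in the larvae 78.2% to 93.5%.

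The only contrast with 2 libraries on each side set the larvae against both transformers. It was fitted with edgeR's quasi-likelihood test over all features with Benjamini-Hochberg adjustment. None of the 4 genes passed an adjusted p of 0.05 in all cells (0.0% of 18981 features passed), in germ cells (0.0% of 18040) or in other cells (3.48% of 18517, 644 features). At an unadjusted p of 0.05, 3380 features passed in all cells and 2752 in germ cells, and DESeq2 called 1778 and 607. In germ cells the transformer minus larva log2 change was −0.35 ± 1.15 for MAEL (SE, edgeR adjusted p = 0.902), 1.66 ± 1.05 for ASZ1 (0.497), 0.24 ± 0.55 for HENMT1 (0.858) and −0.71 ± 1.62 for TEX15 (0.856). Each change was smaller than 2 of its SE. By CPM, TEX15 was the only gene of the 4 with both transformer levels on one side of both larval levels in germ cells, as had 56.8% of features. In other cells none of the 4 did, against 69.8% of features. The other 3 genes had the transformers on opposite sides of both larval levels in germ cells, as had 31.6% of features. With TMM scaling TEX15 had too, its male level log2 0.24 and 0.29 above the larval ones.

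Without the male library the fit compared the female library with the larvae and called all 4 genes in germ cells, with log2 changes of −2.85 for MAEL, −0.42 for ASZ1, 0.74 for HENMT1 and −5.15 for TEX15. Without the female library it also called all 4, with changes of 0.52, 2.49, −0.54 and 0.26. Only the larval pair then gave the spread, and the lone transformer library was assumed to vary as the larval pair did. In these fits 9528 of 18311 and 12057 of 18430 features passed, and what belongs to the stage, the sex or the library cannot be told apart in them. The fits without 1 larval library called no feature in germ cells.

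The rest of the piRNA pathway list gives the setting. Of 42 listed genes, 21 were found as features, 17 beside these 4. In germ cells the median female minus male log2 difference of the 17 was −0.45, against −0.07 over all features, and 4 of them were at least 4-fold lower in the female library, as were 10.1% of all features. PIWIL1, a PIWI protein that binds piRNAs, stood at 29.5 CPM in female, 301 in male, and 62.4 and 64.7 in larval germ cells, a female minus male difference of −3.35 (−3.49 to −3.22). TDRD9, a helicase of the pathway, had a difference of −2.03 (−2.19 to −1.88), and FKBP6, a co-chaperone in piRNA loading, −2.02 (−2.44 to −1.64). At the other end KIF17, a kinesin motor, stood at 1.87 (1.46 to 2.26), PIWIL2, another PIWI protein, at 0.95 (0.60 to 1.29) and WDR77, a partner of the arginine methyltransferase PRMT5, at 0.48 (0.40 to 0.56). PIWIL2 was highest in larvae, at 13.6 and 12.2 CPM, against 5.34 in female and 2.76 in male germ cells.

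**Figure D5:**
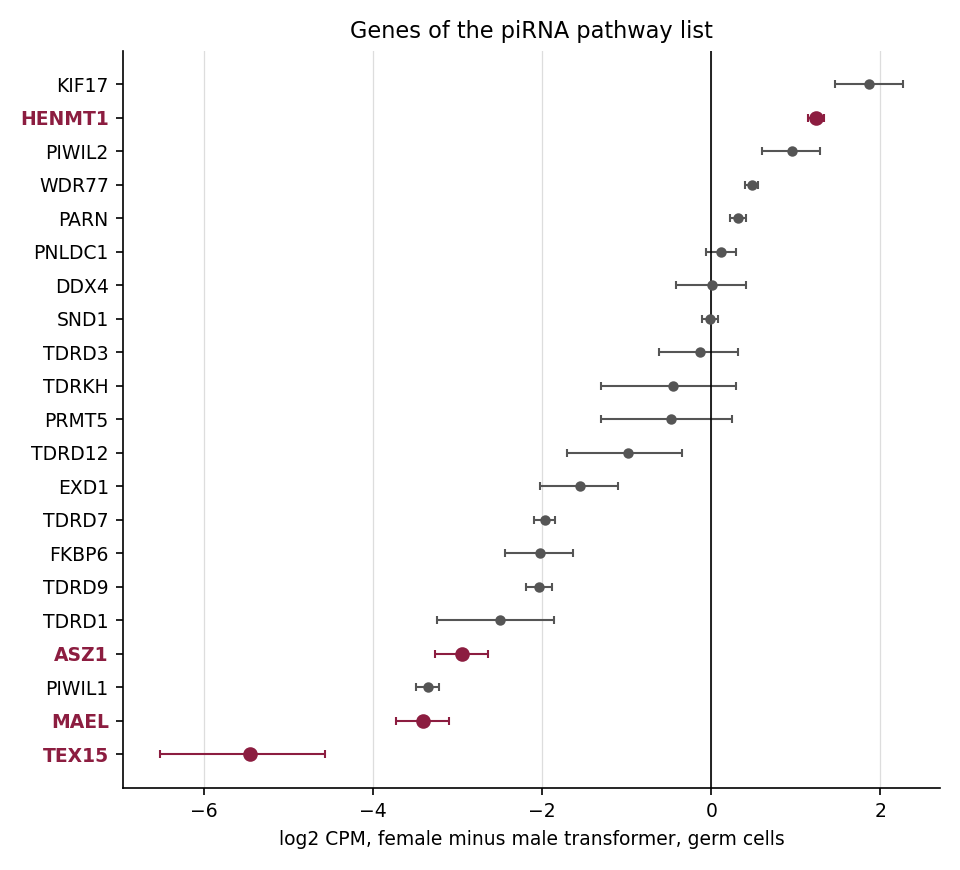
Female minus male log2 difference of CPM in germ cells for the 21 genes of the piRNA pathway list that were found, with exact 95% intervals from counting. TEX15 lies lowest at −5.45, MAEL and ASZ1 lie beside PIWIL1 near −3, and HENMT1 is among the 2 highest.

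PARN and PNLDC1, named after their values were seen, are related nucleases, and PNLDC1 trims piRNA 3′ ends before HENMT1 methylates them in mice. Germ cell PNLDC1 was 18.5 CPM for the female and 17.0 CPM for the male transformer, but 58.4 and 49.0 CPM for the larvae. PARN had the other order, with 61.8 CPM in female, 49.6 in male, and 20.5 and 18.7 in larval germ cells. Germ cells exceeded other cells by a median log2 of 1.62 over the 17 genes in the female library and 1.54 in the male one, and by 1.84 and 1.82 in the larvae, against 0.01 to 0.56 over all features. None of the 21 genes passed the stage test by edgeR in all, germ or other cells, where 0.0%, 0.0% and 3.48% of all features passed.

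Likeness of pattern was measured as Pearson's r of log2(CPM + 1) over 65 sums of a cluster in a library, among 13385 features. These sums share 4 libraries, and germ clusters differ in depth from the others, so r is a description. ASZ1 was most like PIWIL1 (r = 0.961), followed by LOC116937914, LOC116939021, LOC116937270 and TDRD9 (0.938). MAEL was most like LOC116937270 (0.955), LOC116941166, LOC116956390, LOC116937377 and HSF2BP (0.947), a partner of BRCA2 in meiosis in mice. HENMT1 was most like LOC116955731 (0.951), LOC116936899, LOC116936902, LOC116936891 and LOC116958190. TEX15 was most like LOC116957694 (0.961), LOC116952074, LOC116957695, LOC116948967 and LOC116957685. In female germ cells these 5 stood between 0 and 0.989 CPM. Female germ cells were among the sums used to choose them, so this low level is part of the choice. Among the 4 genes themselves r ran from 0.811 for HENMT1 with TEX15 to 0.928 for MAEL with ASZ1.

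A RefSeq gene list for UKy_Petmar_22M1.pri1.0 holds ASZ1 and HENMT1 by symbol, ASZ1 on chromosome 46 between LOC116952268 and GRIPAP1 and HENMT1 on chromosome 22. MAEL and TEX15 were matched to no entry there. HENMT1 overlaps LOC116944922 in that list, and whether the authors' counting used strand is not given in the sources used here, so reads of the overlap may have gone to either gene. LOC116944922 stood at 72.1 CPM in female other cells against 78.8 in female germ cells, and at 52.7 against 89.1 in the male library. HENMT1 in the same other cells stood at 0.774 and 1.74 CPM.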

How the data were processed

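RNA of single gonad cells was counted in 4 libraries. The authors deposited unnormalized counts per gene and barcode, over all barcodes. Not given in the sources used here are the aligner, the build, the annotation and whether a count is a molecule or a read.

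The count minimum of a cell was 5 times the largest background (375, the median of the male barcodes ranked 40000 to 80000). Mitochondrial counts were limited to 20%. Scrublet's own threshold marked 0% of cells, so the cells with the highest scores, from the 95th percentile upward, were removed. Variable genes, with mitochondrial and piRNA pathway genes left out, gave 30 principal components, 15 neighbours and Leiden clusters (scanpy 1.11.5, leidenalg 0.10.2, resolution 1). A marker was raised at log2 1 over the median cluster, with 10 CPM added, and in 10% of cells. CPM left out 24 features without a gene name, which held 2.54% to 4.91% of the counts of called cells. Intervals of ratios are exact binomial ones, from the 2 counts given their sum. Low-count barcodes are those ranked 40000 to 80000, which hold free RNA and, in the male library, some barcodes at the cell minimum.

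Sums of 2 larval and 2 transformer libraries were tested with edgeR 4.0.16 (TMM, filterByExpr, robust quasi-likelihood, two-sided, R 4.3.3), and with DESeq2 1.42.0 as an alternative. An SE is approximate, back-calculated from the log2 change and its F value. The test was also run on simulated data, where changed features moved alike in both transformer libraries. That run does not cover features that differ between the transformer libraries. The named pathway genes are the 3 highest and 3 lowest female minus male differences with 20 counts in both, and the 5 features most like each gene are those with at least 1000 counts. The genes and lists were chosen with earlier results of these data known.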

Additional observations from a re-analysis of the deposited data

Results flagged for a closer look

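In germ cells 3 of the 4 genes had the female and the male transformer on opposite sides of both larval libraries, as had 31.6% of features. The difference between the transformers was not tested, with 1 library of each sex. HENMT1 lay above both larvae in the female library and below both in the male one, a female minus male log2 difference of 1.24. ASZ1 and MAEL lay the other way, with differences of −2.94 and −3.41. Once the genes most abundant in female germ cells were left out of the totals, however, the male MAEL level lay below the larvae. The female ASZ1 level then differed from the larvae by only log2 −0.26 and −0.09. TEX15 lay that way only with TMM scaling, where its male level was log2 0.24 and 0.29 above the larvae.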

How the results depend on the processing

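No paired analysis was possible because the female and the male transformer have 1 library each and carry no replicate number. Leaving the genes most abundant in female germ cells out of the totals moved the female minus male log2 difference to −2.48 for MAEL, −2.02 for ASZ1, 2.17 for HENMT1 and −4.53 for TEX15, and the lowest germ minus other difference of MAEL to 3.54. TMM scaling moved that of HENMT1 to 3.62, and resolution 2 with mixed clusters counted as germ cells moved HENMT1's female minus male difference to 1.33. The other values of these differences moved by less than their counting interval. Resolution 2 alone gave no value, since it left 5 female germ cells. There 504 female cells lay in a cluster with ZAR1L, SOHLH2 and CPEB1 raised that was classed as mixed. Its leading genes were shared with an unnamed cluster of 567 female and 133 male cells. At resolution 1, cluster 31 was named with the minimum of 3 raised germ cell markers. The settings that treat mixed clusters as germ cells, or use female cluster 31 alone, were chosen after seeing the data. Stage calls were 1778 in all, 607 in germ and 3076 in other cells with DESeq2, and 18 in other cells with a doubled count minimum; the cause was not tested. With 1 library left out they ran from 0 to 13221, 0 to 12057 and 0 to 10680, and the sign of each gene's change depended on which transformer library was kept. Their log2 changes then ran, in all, germ and other cells, from −3.44 to 1.79, −2.85 to 0.52 and −1.20 to 1.03 for MAEL, from −1.51 to 3.56, −0.42 to 2.49 and −0.57 to 1.85 for ASZ1, from −1.13 to 0.79, −0.54 to 0.74 and −0.78 to 0.68 for HENMT1, and from −4.37 to 1.54, −5.15 to 0.26 and −1.60 to 1.25 for TEX15. Leaving out a larval library kept their signs and called none of them, with adjusted p of 0.857 or more. In the other settings the lowest adjusted p of any of them was 0.269 (DESeq2, ASZ1, all cells). TEX15 in female germ cells rests on 10 counts.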
